A study of Homo sapiens with 6 samples.

Results

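The 9 genes described here encode proteins of the tight junction, and they were taken by symbol from the 26484 genes listed for each library. They are 5 claudins (CLDN1, CLDN3, CLDN4, CLDN7 and CLDN12), occludin (OCLN), the junctional adhesion molecule JAM-A (F11R) and the scaffolds ZO-1 (TJP1) and ZO-3 (TJP3). All 9 symbols were found. The cells were MCF10CA1a, a tumour-forming human breast line of the MCF10A series, in growth medium with horse serum. They were seeded on gel-coated dishes of 500 Pa (soft) or 8000 Pa (stiff), both coated with growth factor-reduced Matrigel at 0.14 mg/ml. RNA, labelled cytosolic, was taken on day 5 after a change of medium on day 4. Each stiffness had 3 biological replicates, numbered 1 to 3. No genotype or drug differed between the groups, and they rest on 1 cell line.

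Tight junctions seal the space between neighbouring epithelial cells near their apical side. Claudins are membrane proteins that pair across the gap and set which ions pass, occludin and JAM-A sit beside them in the membrane, and ZO proteins tie them to actin. Claudin genes are known targets of transcriptional repressors of the SNAI and ZEB families, which bind the sequence CACCTG, and of activating grainyhead-like factors.

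In these cells the tight junction transcripts were mainly those of CLDN4, CLDN7 and F11R, and no member passed the test between soft and stiff gels (adjusted p under 0.05). CLDN3, OCLN and TJP1 had almost no reads. The promoter sequences of CLDN7 and CLDN3 are shown first because CLDN7 is one of the most abundant claudins here and its window holds the most CACCTG matches, while CLDN3 had almost no reads. RefSeq promoter windows (GRCh38.p14) were found for 8 of the 9 members, all but F11R, as 14 windows of 250 bases before an annotated start. The motif CACCTG, read on both strands (CAGGTG is its reverse complement), occurred in 5 of the 14 windows and in 17.5% of all 35116 windows of the same length. The CLDN7 window ending at its downstream start held 4 matches, and at least 4 were found in 0.122% of all windows. Its other window, from 7263214 to 7263463, held 0. The 4 matches begin 174, 135, 20 and 9 bases before the downstream start on chromosome 17, within stretches that GENCODE places inside the CLDN7 gene. Their window overlaps a CLDN7 exon. The stretches are printed 5′ to 3′ on the minus strand with each match in capitals.
CLDN7 chr17:7262635-7262664: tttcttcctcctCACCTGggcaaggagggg
CLDN7 chr17:7262596-7262625: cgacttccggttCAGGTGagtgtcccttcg
CLDN7 chr17:7262479-7262508: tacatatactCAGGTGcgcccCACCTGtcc

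The windows of CLDN1, CLDN3, CLDN4 and CLDN12 held no CACCTG. That of CLDN3, whose gene lies beside CLDN4, overlaps no GENCODE exon and is printed on its minus strand with the GC box GGGCGG and its reverse complement in capitals. It held 4 GC boxes, and at least 4 were found in 7.63% of all windows. At least 1 was found in 10 of the 14 member windows and in 42.6% of all windows.
CLDN3 chr7:73770271-73770520: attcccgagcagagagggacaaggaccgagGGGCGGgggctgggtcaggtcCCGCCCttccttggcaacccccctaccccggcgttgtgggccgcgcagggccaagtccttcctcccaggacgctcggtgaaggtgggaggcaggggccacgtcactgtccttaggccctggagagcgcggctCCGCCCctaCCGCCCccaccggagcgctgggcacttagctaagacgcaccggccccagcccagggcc
These matches describe the letters in the windows and are not measurements of binding. Transcripts of the repressors were few in both groups. SNAI1 had 1.92 ± 0.761 CPM (counts per 1000000, TMM-scaled, mean ± SD over 3 libraries) at 500 Pa and 2.12 ± 0.592 at 8000 Pa, and SNAI2 had 2.97 ± 1.39 and 2.66 ± 1.30. Over the 6 libraries ZEB1 had 2 counts and ZEB2 had 4. These 4 genes were chosen for mention after their values were seen.

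Total counts ran from 8305601 to 18779742 per library. Thus 3 counts, the limit that a count of 0 allows, correspond to 0.160 to 0.361 CPM scaled by total counts, without TMM. The libraries differed along transcript GC content. The Spearman rho between a gene's deviation from its mean over the 6 libraries and its GC content, across 11348 genes, was 0.54 in 500 Pa replicate 3 and 0.687 in 8000 Pa replicate 3, against -0.77 in 8000 Pa replicate 1 and -0.138 to -0.0636 in the other three. Genes are not independent replicates, so these values describe the libraries. Epithelial markers were abundant, with KRT8 at 11249 ± 3609 CPM at 500 Pa and 9061 ± 3224 at 8000 Pa and EPCAM at 220.4 ± 85.8 and 252 ± 88.9 (both chosen for mention after their values were seen). Of the 8 endothelial markers 3 had no count in any library, CLDN5 among them, and 3 had enough counts to be tested. The highest of them, PECAM1, had 111 ± 30.4 CPM at 500 Pa and 219 ± 19.7 at 8000 Pa. Of 5 leukocyte markers 3 had none and 2 were tested.

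CLDN4, a claudin of many simple epithelia, was the most abundant member. On soft gels it stood at 1084, 879 and 2127 CPM in replicates 1, 2 and 3, and on stiff gels at 732, 1069 and 1673 CPM. The groups overlapped, and both replicate 3 libraries were the highest. The log2 fold change of 8000 Pa over 500 Pa was -0.24 (SE 0.37, 95% interval -1.03 to 0.56, adjusted p = 1 by edgeR's quasi-likelihood test with stiffness as the sole term, the unpaired fit). In bulk RNA, fewer cells of a type and less RNA per cell cannot be told apart. CLDN4 lies on chromosome 7 from 73799542 to 73832693 (GRCh38, GENCODE 29).

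CLDN7, a claudin that is also found along the basolateral membrane, had 621, 440 and 1055 CPM on soft gels and 339, 494 and 674 CPM on stiff gels. The order of the 6 libraries, from 500 Pa replicate 3 at the top to 8000 Pa replicate 1 at the bottom, was the same as for CLDN4. CLDN7 had the smallest unadjusted p of the members, with a log2 fold change of -0.49 (SE 0.34, 95% interval -1.23 to 0.25, unadjusted p = 0.178 and adjusted p = 1 by edgeR). With each library's GC trend as an offset the value was -0.27 (SE 0.22, adjusted p = 0.904 by edgeR). It lies on chromosome 17 from 7259903 to 7263983. Of the 50-base stretches of its longest transcript 11.7% also occur in an overlapping annotated gene, so part of its counts depends on how shared reads were handled.

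F11R, which encodes the adhesion molecule JAM-A, was the steadiest member across libraries. It had 278, 244 and 345 CPM on soft gels and 318, 299.5 and 369.5 on stiff gels. The highest library exceeded the lowest 1.41-fold at 500 Pa and 1.23-fold at 8000 Pa, against 2.42-fold and 2.29-fold for CLDN4. Its log2 fold change was 0.19 (SE 0.24, 95% interval -0.34 to 0.71, adjusted p = 1 by edgeR), and the ranges overlapped. All 3 same-numbered pairs were above 0, at 0.19, 0.29 and 0.10 on the log2 scale. F11R lies on chromosome 1 from 160995211 to 161021348, and 39.0% of its 50-base stretches are shared with other annotated genes, chiefly an overlapping one, so its counts are uncertain.

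CLDN1, a claudin of stratified and glandular epithelia, stood at 77.3, 93.5 and 58.2 CPM on soft gels and 121, 72.5 and 81.8 CPM on stiff gels. 8000 Pa replicate 1 was the highest and 500 Pa replicate 3 the lowest, the reverse of these libraries' places for CLDN4 and CLDN7. The log2 fold change was 0.27 (SE 0.29, 95% interval -0.36 to 0.90, adjusted p = 1 by edgeR). Its gene lies on chromosome 3 from 190305701 to 190322475.

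CLDN12, a claudin without the usual C-terminal PDZ-binding motif, had 13.6, 16.9 and 10.0 CPM on soft gels and 33.5, 16.9 and 8.57 CPM on stiff gels. Its stiff libraries thus span 3.90-fold and enclose the soft ones. The log2 fold change of 0.54 (SE 0.45, 95% interval -0.43 to 1.51, adjusted p = 1 by edgeR) rested on 8000 Pa replicate 1, without which it was -0.09. CLDN12 lies on chromosome 7 from 90383721 to 90513402, a span that overlaps those of the listed genes GTPBP10 and CDK14. Of its 50-base stretches 4.465% also occur in another annotated gene, so part of its counts depends on how shared reads were handled.

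TJP3, the scaffold ZO-3, had 26.4, 25.5 and 53.6 CPM on soft gels and 20.1, 33.2 and 37.1 CPM on stiff gels. The replicate 3 libraries were again the highest and 8000 Pa replicate 1 the lowest. Its log2 fold change was -0.22 (SE 0.37, 95% interval -1.01 to 0.57, adjusted p = 1 by edgeR). The sign turned with the GC offset, to 0.11 (SE 0.22). TJP3 lies on chromosome 19 from 3708109 to 3750813.

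**Figure D1:**
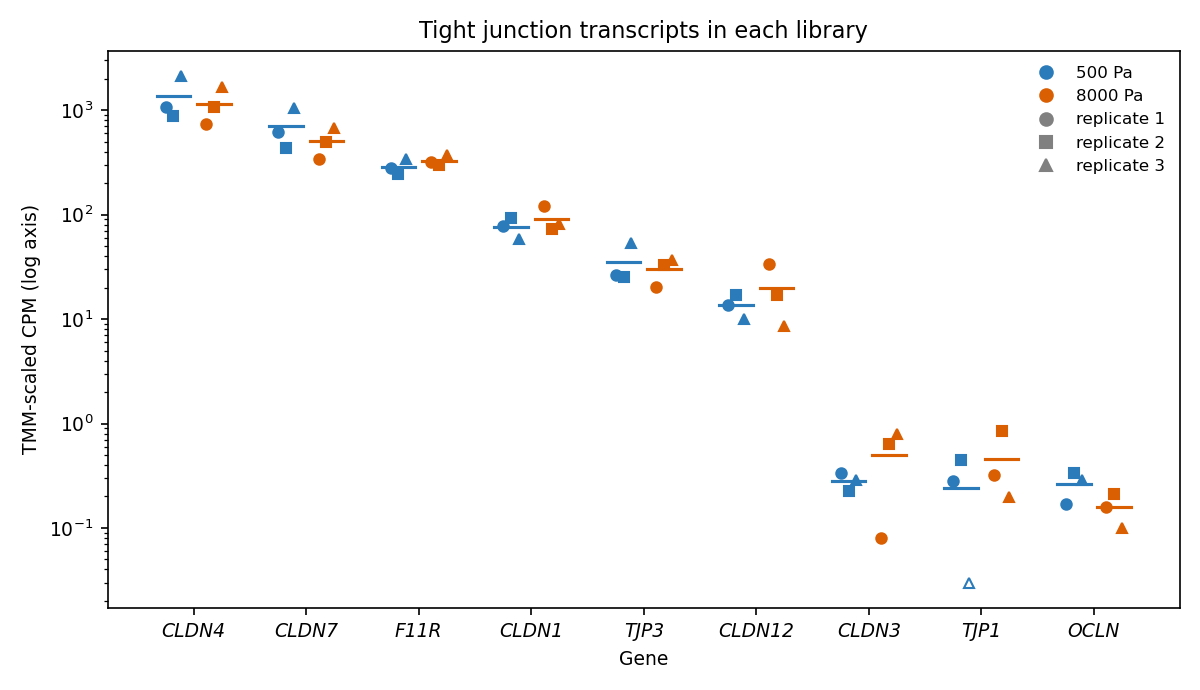
TMM-scaled CPM (log axis) of the 9 genes in each of the 6 libraries, with blue for 500 Pa, orange for 8000 Pa, a marker shape per replicate number and a bar for the group mean. CLDN4 lies at 732 CPM or more in every library and CLDN3, TJP1 and OCLN below 1, and the open marker is the library with a TJP1 count of 0, drawn at the foot of the axis.

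For the tested members other than F11R, the library where each was highest sorted with its GC content. Of the 6 tested members, CLDN4 (57.5% GC), CLDN7 (59.6%) and TJP3 (63.2%) exceeded the median of tested genes (47.95%), and each was highest in 500 Pa replicate 3 and lowest in 8000 Pa replicate 1. CLDN1 (41.5%) and CLDN12 (38.1%) were below it and were highest in 8000 Pa replicate 1. F11R (47.6%) lay close to the median and was highest in 8000 Pa replicate 3. Across tested genes, the Spearman rho of the log2 ratio with GC content was -0.605 in pair 1, 0.061 in pair 2 and 0.019 in pair 3. With the GC offset the log2 fold changes were smaller in size, at -0.09 for CLDN4, 0.16 for CLDN1, 0.35 for CLDN12 and 0.05 for F11R. The standard error of CLDN7 was 0.22 in place of 0.34 and that of CLDN12 0.26 in place of 0.45. How much of the members' differences follows this trend was not tested beyond that offset. The 6 members stayed short of the threshold with this offset, at an adjusted p of 0.898 or more by edgeR.

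None of the 6 tested members passed in the unpaired fit (0 called, as for 0% of all 11517 tested genes) or with DESeq2 or limma-voom. A second fit, here the paired fit, takes same-numbered libraries as blocks. It called 0 of the 6 members and 0.530% of all tested genes. At an unadjusted p under 0.05, 0 of the 6 passed in either fit, where 2.45% of all tested genes did so unpaired and 10.6% paired. The paired log2 fold change of CLDN7 was -0.45 (SE 0.24, 95% interval -0.93 to 0.02, adjusted p = 0.511 by edgeR), the smallest paired p among the members. Its pairs were at -0.87, 0.17 and -0.65 on the log2 scale. Those of CLDN4 were at -0.57, 0.28 and -0.35, so pair 2 went the other way for both. The groups overlapped for each of the 6 members (0 without overlap), against 6.87% of tested genes (4.02% higher and 2.85% lower at 8000 Pa). The median log2 fold change of the 6 was -0.02, and that of all tested genes was 0.01.

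**Figure D2:**
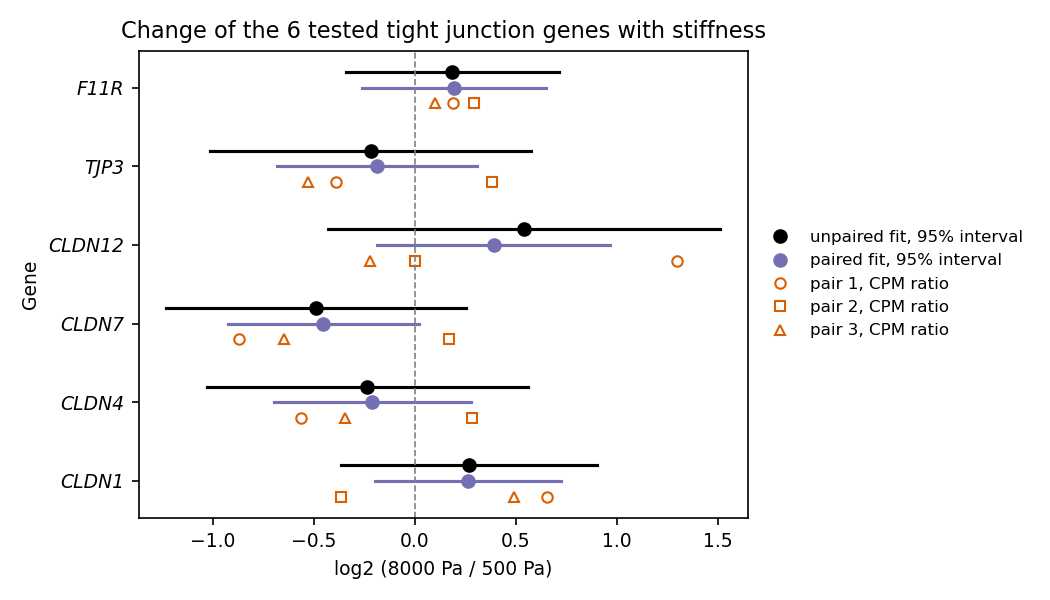
log2 ratio of 8000 Pa to 500 Pa for the 6 tested members, with the unpaired fit (black) and the paired fit (violet) drawn with 95% intervals and the CPM ratio of each same-numbered pair as open orange markers. All 12 intervals include 0, and the pairs of every gene but F11R lie on both sides of it.

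Compared per kilobase of exon, CLDN4 and CLDN7 were close together and far above the other members. CLDN4 averaged 268 CPM per kilobase over the 6 libraries and CLDN7 242, with CLDN4 the higher in 5 of 6, and their ranges overlapped. F11R followed at 61.0, CLDN1 at 23.0 and TJP3 at 7.74 CPM per kilobase, each below the preceding gene in 6 of 6 libraries without overlap. CLDN12 came next at 2.46, and its range overlapped that of TJP3. CLDN3 was at 0.308, OCLN at 0.0311 and TJP1 at 0.0309. The level of CLDN4 depends on the length of 4702 bases used for it, which counts every annotated exon.

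CLDN4 and CLDN7 together made up most of the 5 member claudins in each library. On this scale CLDN4 took 45.8% to 54.7% of them and CLDN7 41.3% to 49.5%. CLDN1 took 1.78% to 10.0%, highest in 8000 Pa replicate 1. All 9 members held between 0.178% (500 Pa replicate 2, exact 95% interval 0.176 to 0.181) and 0.307% (500 Pa replicate 3, 0.304 to 0.311) of a library's counts. These intervals cover counting error only.

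The ratio between the 2 leading claudins did not overlap between the groups. An exact permutation test of 3 against 3 libraries cannot reach the threshold whatever the values, so it does not decide whether the ratio differs. The ratio of CLDN4 to CLDN7 counts, which does not depend on library scaling, was 1.75, 2.00 and 2.02 on soft gels and 2.16, 2.16 and 2.48 on stiff gels. The means were 1.92 ± 0.153 and 2.27 ± 0.187 (n = 3 each), and the two-sided exact permutation p was 0.1, the smallest that 3 against 3 libraries allow. All 3 same-numbered pairs had the higher ratio on the stiff gel, by 0.31, 0.11 and 0.30 on the log2 scale. This was 1 of 15 ratios among the 6 tested members, and the 1 whose groups did not overlap (adjusted p = 0.955 by the exact permutation test over the 15). Such separation was also found for other genes. Of the count ratios of CLDN4 to every other tested gene 3.43% did not overlap between groups, and for CLDN7 4.95%.

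**Figure D3:**
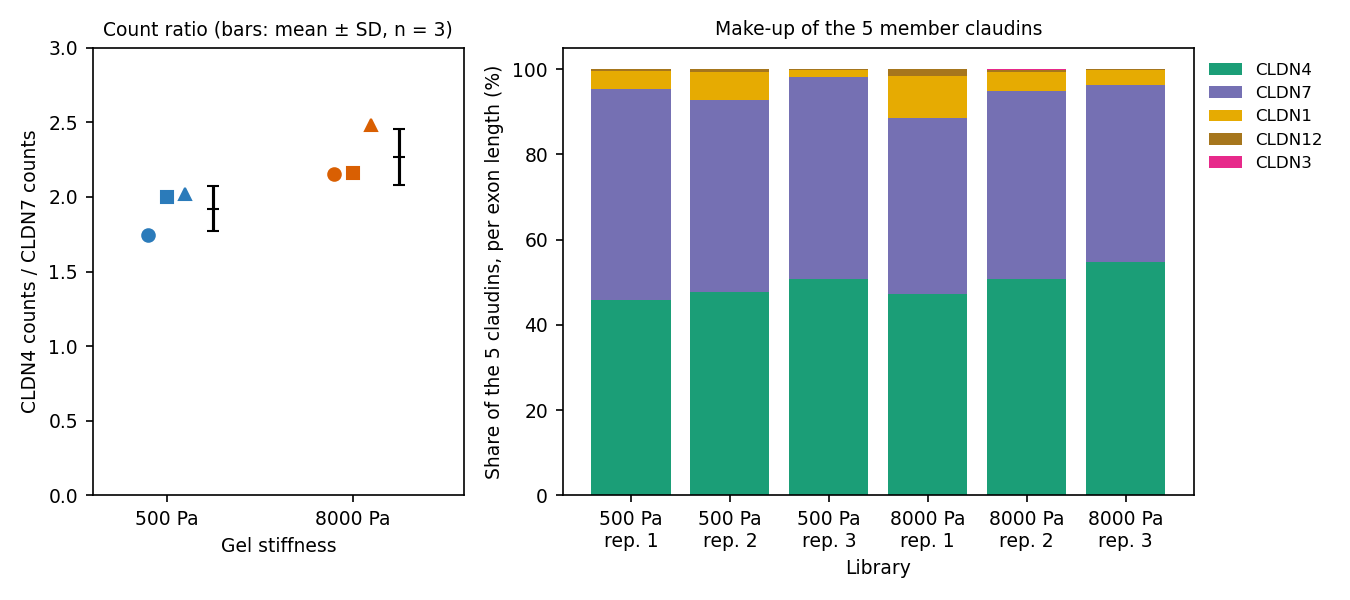
Left, the ratio of CLDN4 to CLDN7 counts in each library by gel stiffness, with mean ± SD (n = 3); right, the share of each of the 5 member claudins per exon length (%) in each library. The ratio runs from 1.75 to 2.02 at 500 Pa and from 2.16 to 2.48 at 8000 Pa, and CLDN4 and CLDN7 fill most of every bar.

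CLDN3, OCLN and TJP1 had too few counts to pass the filter on low counts. Without that filter the unpaired fit called 0 of the 9 members. CLDN3, a close relative of CLDN4, had 6, 2 and 2 counts on soft gels and 1, 6 and 8 on stiff gels. Its gene (chromosome 7, 73768997 to 73770270) lies 29272 bases from CLDN4, which had 7865 or more counts in every library. The genes around it were well covered, and of 27 listed coding genes within 1 Mb 17 reached a mean of 1 CPM, here scaled by total counts. OCLN, which encodes occludin, had 3, 3 and 2 counts on soft gels and 2, 2 and 1 on stiff gels. TJP1, the gene of the ubiquitous scaffold ZO-1, had 5, 4 and 0 counts on soft gels and 4, 8 and 2 on stiff gels.

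Low counts were common among the genes near TJP1 and mixed with higher ones near OCLN. Levels of neighbours are CPM scaled by total counts, without TMM. Within 1 Mb of TJP1 (chromosome 15, 29699367 to 29968865) 1 of 13 listed coding genes reached a mean of 1 CPM, FAN1 at 1.15. Of the other 12, 11 had no count, among them several GOLGA8 genes and NDNL2, a subunit gene of the SMC5/6 complex. Near OCLN (chromosome 5, 69492292 to 69558104) 5 of 13 reached 1 CPM. The general transcription factor subunit gene TAF9 had at most 2 counts per library, the checkpoint gene RAD17 at most 23, and SMN2, of the survival motor neuron complex, had none. TAF9 lies within the span of another listed gene, AK6, and NDNL2 within that of FAM189A1, which also had no count. Sequence shared with other genes was measured for the members only. A low or absent count thus does not show that a neighbour was not expressed. Beyond TAF9 and RAD17, CCNB1, a mitotic cyclin, stood at 409.6 CPM, MRPS36 at 20.1 and SLC30A5 at 7.70. Over all 19080 matched coding genes 57.2% reached 1 CPM. Of the 50-base stretches of the longest OCLN transcript 9.16% occur in other annotated genes, mainly its pseudogene OCLNP1, and of TJP1 0%. Copies outside the primary assembly were not searched, so the levels of OCLN and TJP1 are uncertain. Why they and some of their neighbours had few counts was not tested.

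**Figure D4:**
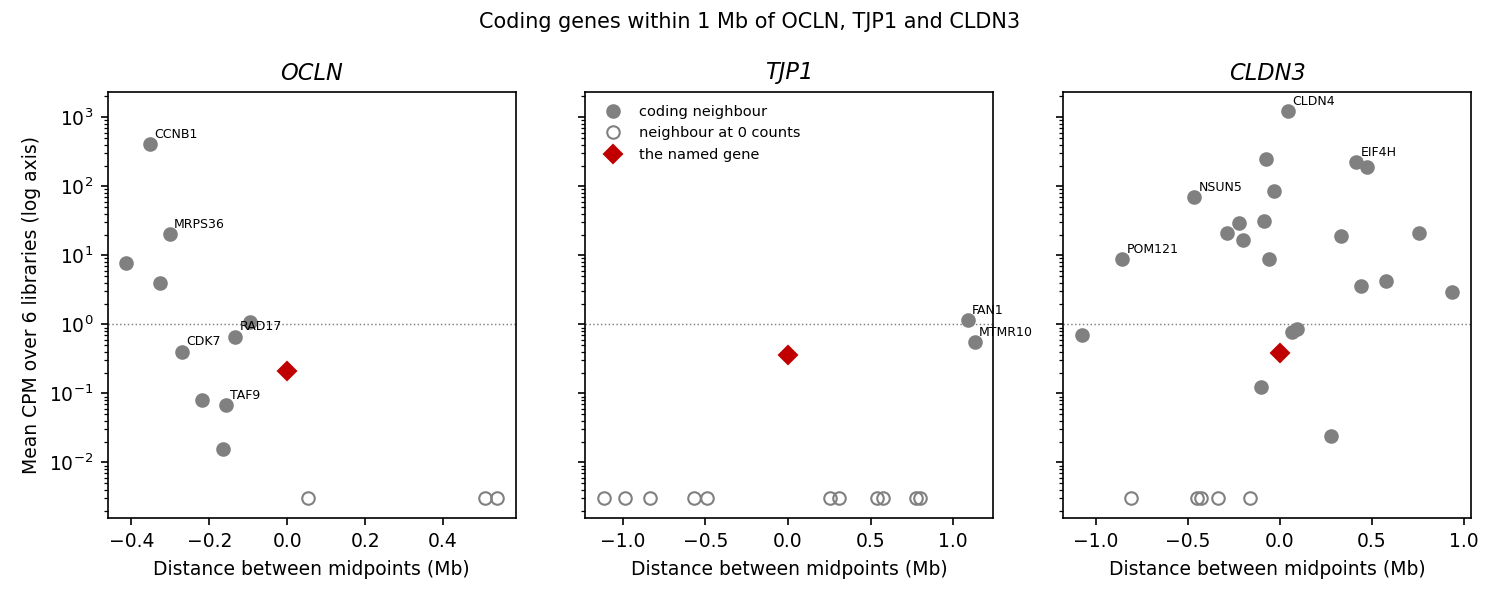
Mean CPM over the 6 libraries (log axis, scaled by total counts) of each coding gene within 1 Mb of OCLN, TJP1 and CLDN3, against the distance between gene midpoints in Mb, with the named gene as a red diamond, open circles for genes without a count and a dotted line at 1 CPM. Around TJP1 1 of 13 neighbours reaches the line, around OCLN 5 of 13 and around CLDN3 17 of 27.

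Beyond these members, 70 further genes of the junction or its control were listed and 47 were tested. In the unpaired fit 0 of the 47 passed and 2 had an unadjusted p under 0.05, where 0% and 2.45% of all tested genes did. In the paired fit 1 passed and 4 had an unadjusted p under 0.05, where 0.530% and 10.6% of all tested genes did. Soft and stiff libraries were fully separate for 5 of the 47, with 2 higher and 3 lower at 8000 Pa, against 6.87% of all tested genes. The median log2 fold change of the 47 was 0.07, beside 0.01 for all tested genes.

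Of 19 other claudin genes, counting the claudin-domain gene CLDND1, 5 were tested and none passed in either fit (0 called). CLDN10, an ion channel-forming claudin, had 8.88 ± 1.56 CPM at 500 Pa and 6.85 ± 2.45 at 8000 Pa. CLDN8 had 2.00 ± 0.748 and 2.92 ± 1.95, CLDN9 2.13 ± 0.530 and 1.48 ± 0.392, and CLDN15 1.48 ± 0.0726 and 1.20 ± 0.251 CPM. CLDND1 had 38.0 ± 8.27 and 39.8 ± 7.61 CPM. Apart from CLDND1, these 5 reached at most 10.3 CPM in a library, and 8 of the 19 had no count at all.

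Among 6 other tested membrane proteins of the junction 0 passed. LSR, the receptor that recruits tricellulin to tricellular junctions, had 289, 217 and 507 CPM on soft gels and 128, 212 and 334 on stiff gels. Its paired log2 fold change was -0.60 (SE 0.23, adjusted p = 0.290 by edgeR), and the pairs were at -1.17, -0.03 and -0.60. Tricellulin itself, MARVELD2, had 1.34, 1.34 and 1.29 CPM on soft gels and 1.04, 0.528 and 0.897 on stiff gels. These groups did not overlap, but each library held 24 counts or fewer, and MARVELD2 is a neighbour of OCLN.

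Among 15 tested scaffolds 0 passed, 9 had a log2 fold change above 0 and the median was 0.11. Of all 11517 tested genes 5901 were above 0, and their median was 0.01. AMOTL1, an angiomotin-family scaffold, had 19.4 ± 5.45 CPM at 500 Pa and 28.0 ± 2.95 at 8000 Pa (unpaired adjusted p = 1, paired adjusted p = 0.427 by edgeR). TJAP1, a junction-associated protein, had 18.2 ± 1.17 and 12.8 ± 4.21 CPM.

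Of 9 tested polarity and RhoA regulators 0 passed. PARD6A, a subunit of the Par polarity complex, had 14.0, 13.1 and 24.4 CPM on soft gels and 5.59, 10.0 and 8.97 on stiff gels, without overlap. Its log2 fold change was -1.06 (SE 0.39, unadjusted p = 0.0165 and adjusted p = 1 by edgeR), and the paired adjusted p was 0.0851. PRKCZ, an atypical protein kinase C of the same complex, had 6.37, 9.28 and 9.57 CPM on soft gels and 4.63, 5.39 and 5.58 on stiff gels, also without overlap. Its log2 fold change was -0.69 (SE 0.37, unadjusted p = 0.0875 by edgeR). PARD6A has a GC content of 62.7% and PRKCZ of 59.6%, and whether their values follow the GC trend was not tested.

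Of 12 tested transcription factors known to act on claudin or epithelial genes, 0 passed unpaired and GRHL3 rose in the paired fit. GRHL3, a grainyhead-like factor of epithelial barriers, had 3.13, 7.27 and 6.57 CPM on soft gels and 11.5, 16.3 and 14.4 on stiff gels. All stiff libraries exceeded all soft ones, and the pairs were at 1.88, 1.16 and 1.13 on the log2 scale. The paired log2 fold change was 1.39 (SE 0.33, adjusted p = 0.0107 by edgeR), and the unpaired one was 1.33 (SE 0.40, adjusted p = 1). In the paired fit GRHL3 did not pass without replicate 1 (1.16, adjusted p = 0.115), replicate 2 (1.51, 0.0751) or replicate 3 (1.57, 0.181). Of 18 alternatives to the unpaired fit it passed in 3, each with same-numbered libraries as blocks. Besides the paired fit these were DESeq2 (1.38, adjusted p = 0.0324) and edgeR with the GC offset (1.38, adjusted p = 0.00912). Over the 18 its log2 fold change ran from 1.03 to 1.57. Its relatives GRHL1 and GRHL2 were chosen for mention after their values were seen, at 48.0 ± 16.0 against 57.2 ± 28.4 and 37.2 ± 17.2 against 43.3 ± 7.69 CPM. The epithelial factor ELF3 had 993 ± 330.3 CPM at 500 Pa and 787 ± 241 at 8000 Pa, and KLF4 had 1.37 ± 0.672 and 0.905 ± 0.497.

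**Figure D5:**
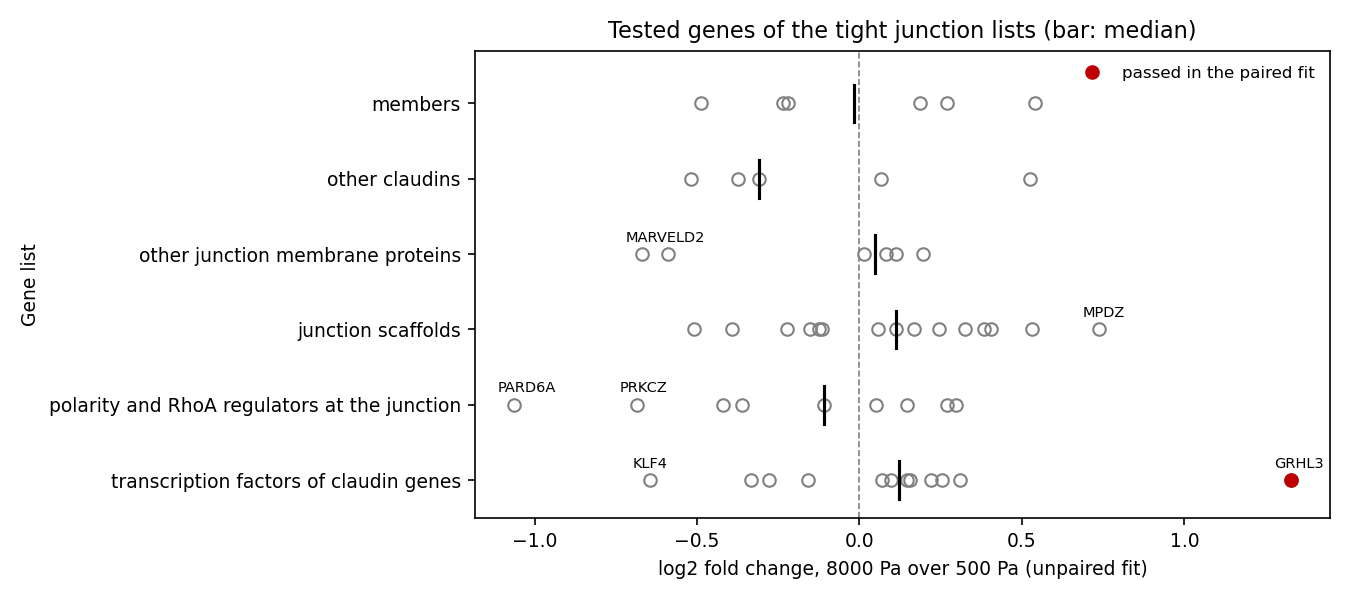
Unpaired log2 fold change of 8000 Pa over 500 Pa for each tested gene of the members and of the 5 further lists, 1 circle per gene and a bar at each median. GRHL3, filled in red at 1.33, passed in the paired fit, and PARD6A lies lowest at -1.06.

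Markers of other cell types were read beside these genes. In the paired fit the endothelial adhesion genes CDH5 and PECAM1 passed, both higher at 8000 Pa (log2 fold change 1.99, adjusted p = 3.14e-04, and 1.01, adjusted p = 0.00537, by edgeR). Neither passed in the unpaired fit. ESAM, an endothelial tight junction protein, had 5.98 ± 1.68 CPM at 500 Pa and 6.14 ± 2.09 at 8000 Pa. The summed level of the 8 endothelial markers was 100.2 to 156 CPM at 500 Pa and 213 to 258 at 8000 Pa, with CLDN5, TIE1 and TEK at 0 and VWF at 7 counts in all. Most of that sum was PECAM1, at 111 ± 30.4 and 219 ± 19.7 CPM, and its part in the members' values was not tested. Of the epithelial markers 0 of 8 passed in either fit, where 0% of all tested genes passed unpaired and 0.530% paired. CDH1, the adherens junction cadherin, had 253, 377 and 269 CPM on soft gels and 405, 427 and 388 on stiff gels, without overlap (its log2 fold change of 0.44, with SE 0.25, had an adjusted p of 1 by edgeR). The basal keratin KRT5 had 768 ± 151 and 507 ± 131 CPM, with an unadjusted p of 0.0462. Of the mesenchymal list COL1A1 had 1.20 ± 0.678 and 2.15 ± 1.48 CPM and VIM 30.1 ± 1.91 and 27.1 ± 9.85. The leukocyte list held CD14 at 8.98 ± 2.28 and 13.6 ± 6.34 CPM and CD68 at 22.6 ± 11.4 and 18.9 ± 5.77.

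Genes whose pattern over the 6 libraries was most like that of CLDN7 were ranked among 8698 non-member genes with a mean of at least 5 CPM. The highest Pearson r on log2 CPM were those of ING4 (0.999), RNF25 (0.998), TMEM179B (0.998), TREX1 (0.998) and ILK (0.997). The 6 points share the GC trend of their libraries, and these 5 genes have a GC content of 50.6% to 63.1%.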

How the data were processed

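The members and gene lists were chosen with earlier results of these data known. For each of the 6 libraries the authors deposited raw counts for 26484 gene symbols, with HISAT2 2.1.2, HTSeq 0.11.4, limma, DESeq2 and GRCh38 named in the submitters' processing notes. For annotation release, strand setting and multi-mapped reads, the choice is not given in the sources used here, so overlapping genes cannot be told apart. The deposited log2 values, TMM-scaled per the file headers, served only as a check, made for the 6 tested members. They differed by at most 0.0387 from log2 CPM computed for this check with TMM factors from all listed genes. Value columns belonging to no sample numbered 0.

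The test was that of edgeR 4.0.16 (R 4.3.3) on these counts (filterByExpr, min.count 10 and min.total.count 15, TMM, quasi-likelihood F test, Benjamini-Hochberg adjustment over 11517 genes, FDR 0.05). The main design had stiffness alone, and the standard error is the fold change over the square root of F. Alternatives were the replicate block, other scalings, no filter, DESeq2 1.42.0, voom in limma 3.58.1, a GC offset (smoothing spline with 5 degrees of freedom per library) and leaving out libraries or pairs. Deviations from the group means correlated at 0.409, 0.184 and 0.516 in same-numbered pairs and at -0.50 to 0.199 in the others. The highest of these, 500 Pa replicate 2 with 8000 Pa replicate 1, exceeded the lowest same-numbered value. Each same-numbered value was over 0.1, and the paired fit took the labels' numbers as blocks. The series text states no pairing, so calls made only in the paired fit depend on this choice. The paired fit has an infinite prior degree of freedom. The fits were tested on simulated data with 100 genes changed 2-fold and 100 changed 4-fold, without replicate blocks or a GC trend. The unpaired fit recovered 13% and 94% of them, with 8 of 115 calls false. The paired fit recovered 18% and 94%, with 11 of 123 calls false. Most simulated 2-fold changes thus went uncalled. Coordinates, exon length and GC content come from GENCODE 29, to which 92.9% of symbols were matched, using RefSeq synonyms. The genes named are the 9 members, every further claudin with at least 1 CPM, and from each list those that passed plus up to 2 of smallest unadjusted p; the report marks junction, marker and factor genes named outside this rule, and names genes next to members. All library pairs differed by more than sampling noise (chi-square per degree of freedom 11.0 or more). Some list genes are not reported here.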

Additional observations from a re-analysis of the deposited data

How the results depend on the processing

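No member passed under any of the 18 alternatives (0 called in each), and the lowest adjusted p of a member was 0.264, for CLDN7 with the replicate block and without replicate 2. The signs of CLDN1, CLDN7 and F11R held in all 18, with CLDN7 from -0.76 to -0.03. Without single libraries CLDN4 ran from -0.60 to 0.28, turning to 0.28 without 500 Pa replicate 3 and to 0.0082 without 8000 Pa replicate 1. CLDN12 ran from -0.089 (without 8000 Pa replicate 1) to 0.94 (without 8000 Pa replicate 3), and was -0.084 with the replicate block and without replicate 1. Without single libraries TJP3 ran from -0.41 (without 500 Pa replicate 2) to 0.26 (without 500 Pa replicate 3), and over all 18 its lowest value was -0.46, with the block and without replicate 2. It was 0.0052 without 8000 Pa replicate 1, 0.045 with the block and without replicate 3, 0.11 with the GC offset and 0.13 with that offset and the block. The cause was not tested. Over all genes the unpaired count of 0 became 61 with the replicate block, 69 with the block and the GC offset, 1 with the GC offset alone, 8 with no filter, 7 with DESeq2 and 42 with DESeq2 and the block. Leaving out single libraries gave 0 to 1, and leaving out pairs from the paired fit gave 38, 81 and 12 (without replicate 1, 2 and 3). The block changed the call of GRHL3 and of the endothelial genes PECAM1 and CDH5 and of no other listed gene. The intervals of the 6 tested members are wide, and low counts limit what can be said of CLDN3, OCLN and TJP1.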
